A study of Mus musculus with 12 samples.

Results

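The clustered core histone genes are the replication-dependent genes for histones H2A, H2B, H3 and H4, which lie side by side in the genome. They were chosen by symbol alone, as the 51 of 55141 counted genes named H2ac, H2bc, H3c or H4c followed by a number. By name, 15 of these belong to H2A, 14 to H2B, 12 to H3 and 10 to H4, though H2ac14 is annotated as a pseudogene. By their deposited mm10 coordinates, 41 lie on chromosome 13 and 10 on chromosome 3. The rule itself uses no measured value.

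The RNA came from gastruloids, aggregates of mouse embryonic stem cells (129/svev line) which lengthen along a body axis in standard culture without a gel. All 12 libraries share their start, with 300 cells seeded per well, a 24 h pulse of the Wnt agonist CHIR99021 at 3 µM after 48 h of aggregation, and collection at 120 h. Gastruloids were embedded in dextran hydrogels at 72 h or 96 h, the gel being 1.0 mM in one arm and 1.5 mM in the other, which gives 4 groups of 3 biological replicates. Each replicate pooled about 30 gastruloids of the same cell line, so spread between single gastruloids was not measured.

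Core histones form the nucleosome, around which DNA is wrapped, and cells need large amounts of them when DNA is copied. Transcription of these genes is therefore tied to S phase, through the coactivator NPAT in histone locus bodies. Their RNAs mostly have no introns and no poly-A tail. They end instead just after a short hairpin that is bound by stem-loop binding protein (SLBP) and cleaved with the help of the U7 small nuclear RNA. Some members are also made as longer, polyadenylated RNAs, mainly in differentiating cells. Libraries prepared by selecting poly-A RNA, as here, therefore hold only a part of the histone RNA.

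The hairpin is shown first because it stands in place of the poly-A tail on which the library preparation selects. Transcripts of all 51 genes were found by identifier in GENCODE M21, and the bases after the stop codon were searched for 16 bases made of a 6-base stem that opens with GG, a 4-base loop that opens with TT, and the complementary stem. A match was found in 32 genes, in 6 spellings. The most common was shared by 18 genes of H2A, H2B and H3, none of them for H4. Capitals mark the hairpin and small letters 5 bases on each side, all 5′ to 3′ from GENCODE M21 (GRCm38).
H4c3, minus strand, chr13:23698084-23698109: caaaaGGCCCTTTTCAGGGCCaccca
H4c4, plus strand, chr13:23581945-23581970: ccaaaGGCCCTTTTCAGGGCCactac
H4c2, plus strand, chr13:23757361-23757386: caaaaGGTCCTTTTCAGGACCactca
H4c9, minus strand, chr13:22040961-22040986: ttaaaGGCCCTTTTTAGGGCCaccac
H3c7, plus strand, chr13:23544927-23544952: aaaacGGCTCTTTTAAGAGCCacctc
H2ac8, minus strand, chr13:23570663-23570688: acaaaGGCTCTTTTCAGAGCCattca

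All 6 hairpins lie 30 to 36 bases after the stop codon. The spelling of H4c3 is shared by H4c4, H4c6 and H4c8, and that of H4c2 by H4c11. In 13 other genes the annotated transcript had fewer than 16 bases after the stop codon, too few to hold a match. Another 5 had a longer end in which this pattern was not present. Among these were H2bc4 and H2bc21, whose transcripts of 1156 and 2620 bases are among the longer of the set. The letters AATAAA, which match the usual signal for polyadenylation, occurred after the stop codon in 10 genes, H2bc4 and H2bc21 included. The last member, H2ac14, is annotated as an unprocessed pseudogene and has no coding transcript. The deposited loci of H2bc4 (chr13:23684199-23692908) and H2bc6 (chr13:23583670-23621124) are longer than their longest transcripts, of 1156 and 2506 bases.

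The promoters are shown for the letters they share. RefSeq promoter windows (GRCm38.p6, 250 bases before to 50 after the start) were matched by symbol for 45 of the 51 genes, with 46 windows. The letters TATAAA were found on either strand in 56.5% of these windows against 13.6% of all 32851 windows, CCAAT in 87% against 37.4%, and TTTGCAT, the core of the octamer motif of H2B promoters, in 30.4% against 4.63%. CCAAT was in every H2A, H2B and H3 window and in 3 of the 9 H4 windows. TTTGCAT was in 7 of 13 H2B, 6 of 14 H2A, 1 of 9 H4 and no H3 windows. The 250 bases before the start are given 5′ to 3′ for 3 H4 genes, with these motifs in capitals where they read as such or as their complement. H4c3 and H4c4 pass the test of embedding time in 1.0 mM gels below, and H4c9 does not.
H4c3, minus strand, chr13:23698459-23698708: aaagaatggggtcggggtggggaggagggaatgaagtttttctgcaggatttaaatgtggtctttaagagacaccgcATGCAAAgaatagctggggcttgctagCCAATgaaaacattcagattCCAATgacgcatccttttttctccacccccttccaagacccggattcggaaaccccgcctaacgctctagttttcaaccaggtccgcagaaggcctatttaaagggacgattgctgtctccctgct
H4c4, plus strand, chr13:23581318-23581567: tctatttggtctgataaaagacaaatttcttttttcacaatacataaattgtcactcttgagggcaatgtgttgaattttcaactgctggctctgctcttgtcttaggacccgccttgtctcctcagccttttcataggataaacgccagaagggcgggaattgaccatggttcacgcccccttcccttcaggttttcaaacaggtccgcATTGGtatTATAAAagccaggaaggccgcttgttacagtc
H4c9, minus strand, chr13:22041363-22041612: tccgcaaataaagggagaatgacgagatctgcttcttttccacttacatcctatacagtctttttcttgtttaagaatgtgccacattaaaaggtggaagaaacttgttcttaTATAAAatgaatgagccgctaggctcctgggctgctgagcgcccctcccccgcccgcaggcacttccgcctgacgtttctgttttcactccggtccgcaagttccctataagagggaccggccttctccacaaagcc

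Counted from the start site, H4c3 held CCAAT at -146 and -126 and TTTGCAT on the opposite strand at -173. H4c4 held TATAAA at -32 and CCAAT on the opposite strand at -40, and H4c9 held TATAAA alone, at -137. A match is a description of letters, and binding was not measured.

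Total counts ran from 23011791 to 27609422 per library. The gastruloid markers were present in all libraries, with T, the Brachyury gene, at 1725 to 7093 counts and Meox1, a somite gene, at 1519 to 10940. Blood markers were absent (Hbb-y and Ptprc at 0, Hba-x at 0 to 2 counts), while the endothelial gene Kdr had 3321 to 5738 counts. The libraries differed widely in RNAs that carry no poly-A tail. Rn7sk, the RNA of the 7SK particle that holds back transcription elongation, had 193 to 2202 counts, and Rmrp, the RNA of the RNase MRP enzyme, 32 to 1115. Summed over the 20 such RNAs that were matched, of which 5 were at 0 in all libraries, counts were 663 to 2774 after embedding at 72 h and 454 to 1132 at 96 h in 1.0 mM gels. In 1.5 mM gels they were 407 to 3609 at 72 h and 856 to 2540 at 96 h. Replicates 1 of 72 h and 2 of 96 h in 1.5 mM gels and replicates 2 and 3 of 72 h in 1.0 mM gels stood highest in Rn7sk, and each count below is also given without single libraries where that matters.

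All 51 core histone genes together took 558 to 1831 counts per library, or 22.3 to 68.4 ppm of all counts. In 1.0 mM gels the 3 libraries held 646, 1183 and 1264 counts after embedding at 72 h and 640, 918 and 777 at 96 h. In 1.5 mM gels they held 1586, 864 and 558 counts at 72 h and 946, 1831 and 930 at 96 h. Replicates of a group differed by up to 2.84-fold (72 h embedding, 1.5 mM). The counts of both 96 h groups did not overlap, at 640 to 918 in 1.0 mM and 930 to 1831 in 1.5 mM gels, while every other pair of groups overlapped. Scaled to library size as CPM, the 96 h groups overlapped as well, at 24.5 to 36.8 against 35.5 to 73.5.

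By counts, Rn7sk ranked the 3 replicates as the histone sum did within each of the 4 groups, though not over all 12 libraries. Its counts were 368, 1288 and 1763 at 72 h and 211, 788 and 556 at 96 h in 1.0 mM gels, and 2202, 595 and 193 at 72 h and 701, 1702 and 501 at 96 h in 1.5 mM gels. By CPM (counts scaled to library size after TMM) this ranking did not hold at 96 h in 1.5 mM gels. There the histone sum was 35.5 in replicate 1 and 36.2 in replicate 3, while Rn7sk was 26.3 and 19.5. The 4 libraries highest in summed histone CPM were also the 4 highest in Rn7sk. The library lowest in the one was lowest in the other (replicate 3 of 72 h in 1.5 mM gels). This is a description of 12 libraries, and what moves both was not tested.

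**Figure D1:**
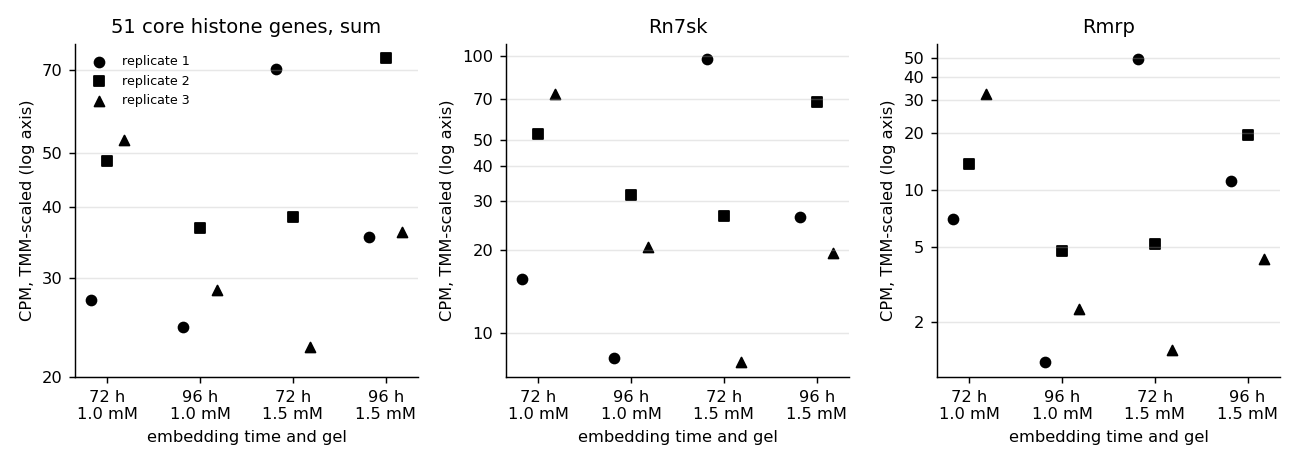
Summed level of the 51 core histone genes (left), Rn7sk (middle) and Rmrp (right) in each of the 12 libraries, in CPM on log axes, with symbols for the replicate number. Histone sums run from 22.6 to 73.5 CPM, and their highest libraries, replicate 1 of 72 h and replicate 2 of 96 h in 1.5 mM gels, are also among the 3 highest of the other panels.

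Single members were low. Only 4 genes averaged at least 50 counts per library, 40 passed the filter on low counts over the 12 libraries (10 of each histone), and H2bc1 and H2ac18 had no count in any. A count of 0 allows up to 3 counts in a library, for counting error only. That bound does not cover reads that match several genes. Only 11.1% of the 75-base stretches of H2ac18 are unique among annotated transcripts, against 66.8% for H2bc1. Most histone variants listed as made outside S phase, whose RNAs are mostly polyadenylated, were far above the core histone genes per length. H2az1, the H2A.Z gene, had 358 to 541 FPKM (fragments per kilobase of transcript, scaled to library size). H3f3b, an H3.3 gene, had 485 to 616 FPKM. The mean was 3.36 FPKM for H4c9, the highest core histone gene on that scale. H4f16, an H4 gene in the list of variants, had only 0.07 to 0.40 FPKM.

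By family, the summed FPKM over the 10 H4 genes had a median of 11.9 and a range of 5.72 to 27.3 over libraries. The H2B sum had a median of 8.95 (4.56 to 16.9), the H3 sum 6.78 (3.29 to 14.8) and the H2A sum 5.10 (2.74 to 11.0). All 4 ranges overlapped, and H4 varied most between libraries.

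Members did not all vary alike. H2bc4 had the highest mean, with 87, 78 and 95 counts at 72 h and 93, 87 and 132 at 96 h in 1.0 mM gels, and 85, 101 and 70 at 72 h and 115, 118 and 69 at 96 h in 1.5 mM gels. H4c9 had 62, 92, 103 and 92, 116, 69 counts in the same order in 1.0 mM gels, and 57, 75, 66 and 78, 72, 65 in 1.5 mM gels. H2bc21, the third of this kind, stayed between 33 and 63 counts. H4c4, by contrast, had 39, 67 and 87 counts at 72 h and 19, 32 and 34 at 96 h in 1.0 mM gels, then 132, 52 and 12 at 72 h and 57, 114 and 65 at 96 h in 1.5 mM gels. Its replicates of 72 h in 1.5 mM gels thus ran from 12 to 132 counts, while H2bc4 ran from 70 to 101 in those libraries.

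The first comparison asked whether earlier embedding changed these genes in 1.0 mM gels. Among the 33 members tested, 6 were higher after embedding at 72 h than at 96 h (adjusted p below 0.05 and a log2 fold change above 1), and none was lower. The percentage of all 15763 genes tested that passed the same rule was 4.3, against 18.2 of the members. Of the 6, 5 encode H4, the histone that pairs with H3 at the core of the nucleosome, and 1 encodes H3.

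H4c3 had 10, 36 and 33 counts at 72 h and 3, 5 and 7 at 96 h. Its lowest library at 72 h was above its highest at 96 h. The log2 fold change was 2.48 ± 0.54 (SE, n = 3 per group, adjusted p = 0.0148 by edgeR). H4c6 had 26, 25 and 47 counts against 4, 11 and 10, again without overlap, and a log2 fold change of 2.07 ± 0.43 (adjusted p = 0.0120).

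H4c8 had 15, 40 and 45 counts against 10 in each library at 96 h, a log2 fold change of 1.84 ± 0.43 (adjusted p = 0.0201). H4c2 had 18, 27 and 19 against 3, 9 and 10, with 1.64 ± 0.43 (adjusted p = 0.0357). H4c4, whose counts are given above, rose by 1.30 ± 0.34 (adjusted p = 0.0335). In all 3 the groups did not overlap, and replicate 1 was the lowest of the 3 libraries at 72 h.

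H3c7, the H3 gene of the set, had 11, 31 and 29 counts at 72 h and 4, 10 and 6 at 96 h, with a log2 fold change of 1.92 ± 0.49 (adjusted p = 0.0324). H4c1 (1.08 ± 0.32) and H4c12 (1.18 ± 0.36) did not pass, at adjusted p = 0.0567 and 0.0656. Groups did not overlap, with 72 h higher, in 9 of the 33 members, against 14.6% of all genes. The log2 fold change was above 0 in 27 members, against 48.9% of all genes.

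The H2A and H2B genes gave no call. The H2A median was 0.48 on the log2 scale over 9 genes and the H2B median 0.35 over 8, against 1.30 over the 9 H4 genes, 0.50 over the 7 H3 genes and -0.01 over all genes tested. Of the 4 most abundant members, H4c4 was called, while the fold changes were -0.13 ± 0.20 for H2bc4, -0.09 ± 0.24 for H2bc21 and 0.00 ± 0.26 for H4c9.

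**Figure D2:**
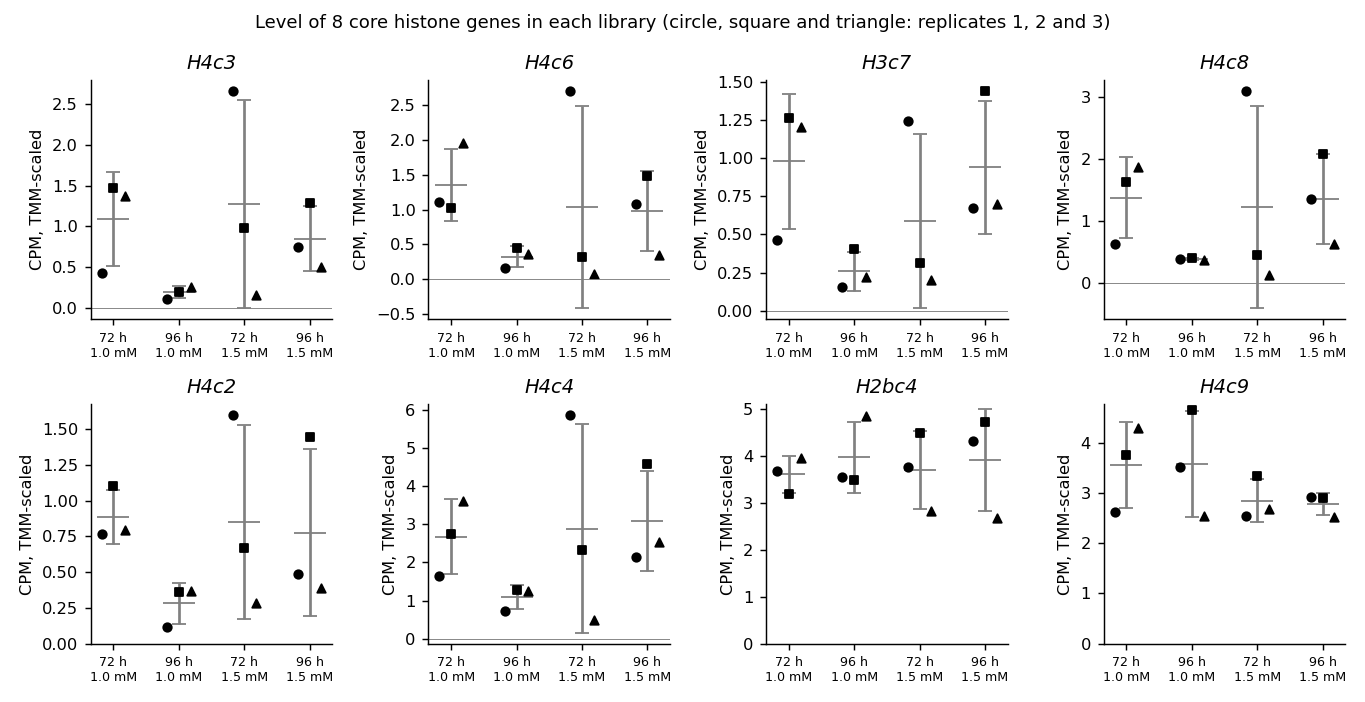
CPM of the 6 genes that were higher at 72 h in 1.0 mM gels, and of H2bc4 and H4c9, in each library by group, with the mean and SD of 3 replicates as bars. The 6 genes have their lowest mean in the 96 h, 1.0 mM group and spread widely in the 72 h, 1.5 mM group, while H2bc4 and H4c9 show no such pattern.

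Among 5 listed RNAs without poly-A tails tested between the same libraries, 1 passed. Rmrp was higher at 72 h by 2.68 ± 0.54 on the log2 scale (adjusted p = 0.00992 by edgeR), while Rn7sk gave 1.24 ± 0.50 (adjusted p = 0.165). The small RNAs Snord17 (0.82 ± 0.46), Scarna2 (0.80 ± 0.54) and Snora73b (-0.38 ± 0.19) did not pass either. The part of these RNAs in the calls was not tested. When all 12 libraries were fitted together, 0 members passed by edgeR, 8 had an unadjusted p below 0.05, and the median was 0.52. With Rn7sk added to that fit, a setting chosen after the data were seen, 0 passed, 3 had an unadjusted p below 0.05 and the median was -0.10. Markers of undifferentiated stem cells differed too, with 307 to 429 summed counts over 4 genes at 72 h and 723 to 1042 at 96 h, and 3 of the 4 (Zfp42, Nanog and Esrrb) were lower at 72 h. Leaving out single libraries of this comparison gave 1 to 8 members, and the number fell to 2 or fewer without any of replicates 2 and 3 of 72 h or replicates 1, 2 and 3 of 96 h.

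In 1.5 mM gels the same comparison of embedding times gave no member out of 39, against 3.18% of all 15683 genes, and none at an unadjusted p below 0.05, where 35.1% of all genes stood. DESeq2 and limma-voom also gave 0. The median log2 fold change was -0.11 over the members, and 12 of the 39 were above 0, against 49.3% of all genes. H4c3 had 60, 22 and 4 counts at 72 h against 20, 32 and 13 at 96 h, and H4c6 had 61, 7 and 2 against 29, 37 and 9, so in both the 72 h libraries lay above and below those of 96 h.

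The outcome changed without replicate 1 of 72 h in these gels, the library highest in Rn7sk. Without it 5 members were called, all lower at 72 h (H2bc13, H3c6, H3c7, H4c6 and H4c8), with a median of -0.79. Without replicate 2 of 96 h none was called and the median was 0.29. The direction in 1.5 mM gels therefore turned with the library left out.

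Whether gel concentration changed these genes was asked at each embedding time. At 72 h, 0 of 38 members and 0% of all 15563 genes were called, also 0 members at an unadjusted p below 0.05 (6.9% of all genes) and 0 by DESeq2 or limma-voom, and the median of the members was 0.03. H2bc21 came nearest, with 33, 46 and 47 counts in 1.0 mM and 54, 63 and 57 in 1.5 mM gels, a log2 difference of 0.52 ± 0.24 (adjusted p = 0.704). It was the one member whose groups did not overlap, against 5.97% of all genes higher in 1.5 mM gels.

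At 96 h no member passed either, out of 37, and 0% of all 15861 genes did. However, 34 of the 37 had a higher level in 1.5 mM gels (48.6% of all genes did), and 14 had an unadjusted p below 0.05, all of them higher, against 5.04% of all genes. The largest difference was that of H4c3, at 2.11 ± 0.49 (adjusted p = 0.189). H3c1 had 11, 40 and 21 counts in 1.5 mM against 4, 9 and 5 in 1.0 mM gels, a difference of 2.00 ± 0.55 (adjusted p = 0.286), and H4c4 gave 1.49 ± 0.33 (adjusted p = 0.184).

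Groups did not overlap in 12 members, with 1.5 mM higher in each, against 7.46% of all genes. By family the median difference was 1.43 for H4, 1.01 for H3, 0.75 for H2B and 0.53 for H2A on the log2 scale. H2bc4 (-0.02 ± 0.23) was the lowest of the H2B genes and H4c9 (-0.36 ± 0.23) the lowest of the H4 genes, with H4c11 (-0.09 ± 0.42) next to it. Rmrp (2.08 ± 0.50) and Rn7sk (0.92 ± 0.46) were also higher in 1.5 mM gels without passing, at adjusted p = 0.206 and 0.543.

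The comparison at 96 h depended on the settings. DESeq2 called 1 member (H4c4), edgeR without a filter on low counts 10, and a fit with the replicate number as a block 6, all higher in 1.5 mM gels, while limma-voom called 0. The 96 h libraries of 1.0 mM gels enter both here and in the comparison of embedding times, so those comparisons share 3 libraries and are not independent.

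**Figure D3:**
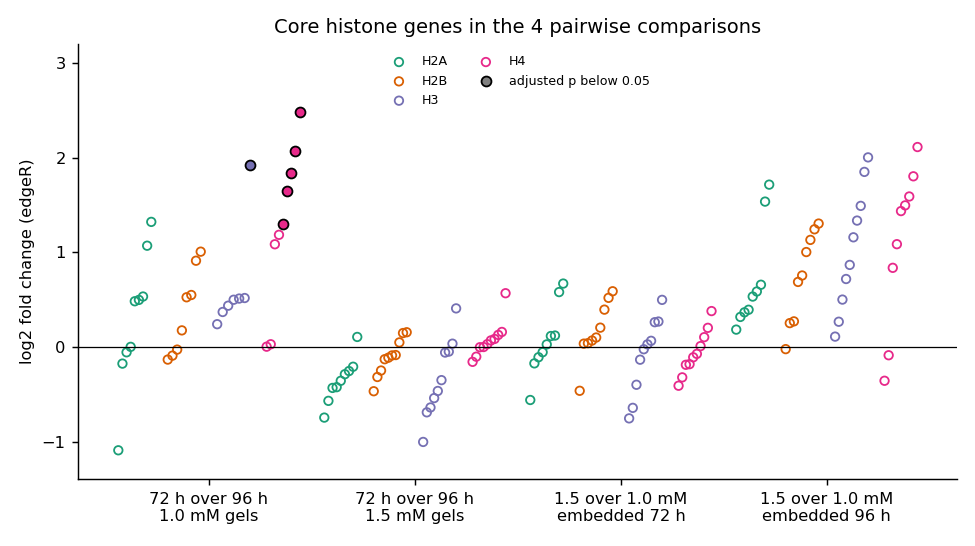
Log2 fold change of each tested core histone gene in the 4 pairwise comparisons, by histone family, with filled symbols for an adjusted p below 0.05. The 6 filled points, 5 H4 genes and H3c7, lie between 1.30 and 2.48 in the 1.0 mM gels, and most points of the comparison at 96 h lie above 0 without passing.

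Across all 12 libraries no member was called for embedding time with both gels together, for gel concentration with both times together, or for the interaction of the 2. The percentages of all 16388 genes called were 4.66, 0.0061 and 0. For embedding time 2 members had an unadjusted p below 0.05, against 42.5% of all genes. For gel concentration 4 had one, all higher in 1.5 mM gels (7.04% of all genes), and for the interaction 4, all negative (1.96%). DESeq2 called H4c3 for embedding time and no member for the others, and limma-voom called none for any of them.

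The interaction asks directly whether the effect of embedding time differed between the gels. Its estimates were above 0 in 5 of the 40 members, against 51.6% of all genes, and had a median of -0.90, which is the direction of a larger excess at 72 h in 1.0 mM gels. The member with the strongest estimate relative to its error was H3c7, at -2.60 ± 0.87 (adjusted p = 0.953 by edgeR). A difference between the gels in the effect of embedding time was thus not shown for any member.

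The pseudogene H2ac14 passed an adjusted p of 0.05 across both gels, in the direction of lower levels at 72 h. It had 7, 13 and 7 counts at 72 h and 29, 17 and 17 at 96 h in 1.0 mM gels, and 14, 5 and 23 against 35, 15 and 28 in 1.5 mM gels. Across both gels it was lower at 72 h by a log2 fold change of -0.90 ± 0.32 (adjusted p = 0.0438), under the fold threshold. That is 1 of 40 members at this adjusted p, against 31.1% of all genes. Only 7.55% of its 75-base stretches are unique among annotated transcripts, and its locus overlaps that of Gm44357, and whether reads of other genes are counted here was not tested.

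Because these RNAs mostly lack poly-A tails, each gene was also fitted against the log2 CPM of Rn7sk, with a mean for each of the 4 groups, so that only differences between replicates entered. The fit was added after the data were seen. Of the 40 members, 8 rose with Rn7sk (adjusted p below 0.05), which is 20% of them, against 0.159% of all 16387 genes. No member fell. The 8 were H4c12, H4c4, H4c3, H4c1, H4c8, H3c7, H3c6 and H3c2.

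The slope says by how much the log2 level rises for each log2 unit of Rn7sk. It was 0.86 ± 0.12 for H4c3 (adjusted p = 0.00607), 0.91 ± 0.15 for H4c8 (adjusted p = 0.0224) and 0.70 ± 0.09 for H4c4 (adjusted p = 0.00607). For the H3 genes it was 0.70 ± 0.11 in H3c7, 0.64 ± 0.11 in H3c6 and 0.79 ± 0.14 in H3c2. It was above 0 in 39 of 40 members (49.2% of all genes), with a median of 0.62 against -0.00 over all genes.

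H4c6 and H4c2, both called between embedding times, had slopes of 0.88 ± 0.18 and 0.61 ± 0.13 without passing (adjusted p = 0.103 and 0.146). Thus 4 of the 6 genes called in 1.0 mM gels also passed in the fit on Rn7sk.

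A few members, some of them chosen for mention after their values were seen, gave small slopes that did not pass. H2bc21 had a slope of 0.07 ± 0.07, H4c9 0.09 ± 0.08 and H2bc4 0.11 ± 0.08, and H2ac12 0.12 ± 0.13. The first 3 are among the 4 most abundant members, and the fourth, H4c4, is one that did. H2ac14 had a slope of -0.23 ± 0.15.

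**Figure D4:**
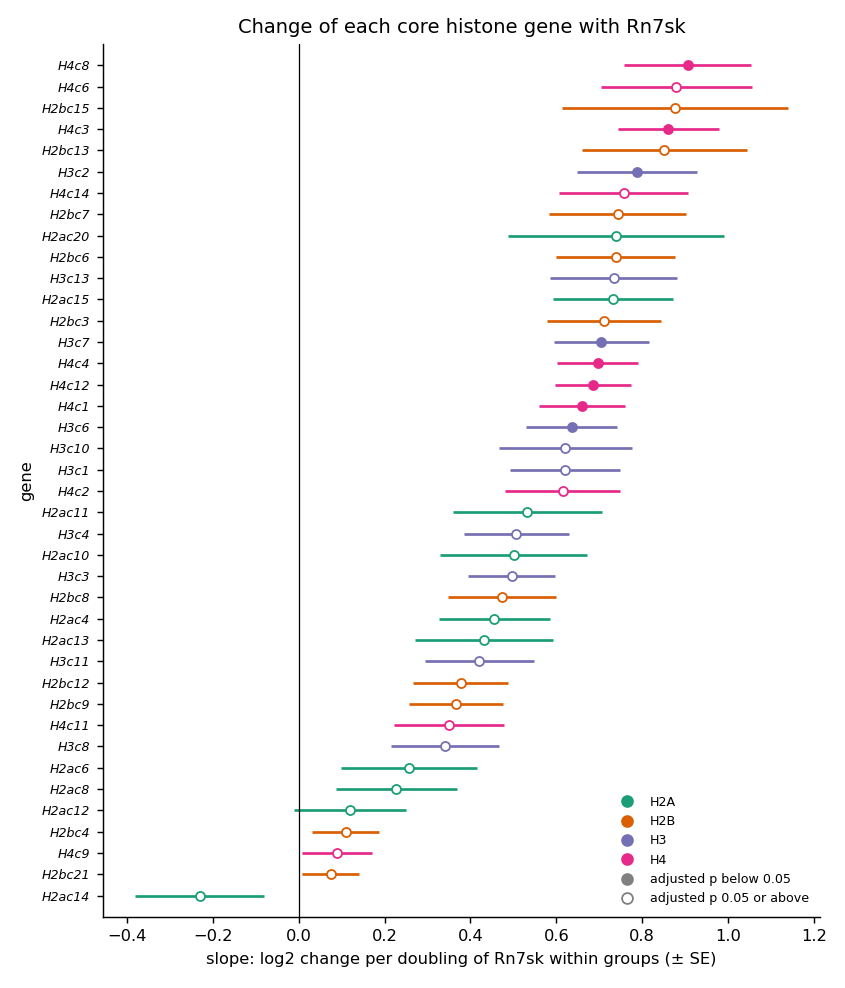
Slope of each of the 40 tested core histone genes on the log2 CPM of Rn7sk within groups, with its SE, coloured by family and filled where the adjusted p is below 0.05. All slopes but that of H2ac14 are above 0, and H2bc21, H4c9 and H2bc4 lie near 0 at 0.07 to 0.11.

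The slopes were set beside the sequence features given above, as a description. The 25 tested members with a matched hairpin had a median slope of 0.62 (0.09 to 0.91). The 9 with fewer than 16 bases after the stop codon had 0.62 (0.12 to 0.88). The 5 with a longer end but no match had a median of 0.34, from 0.07 in H2bc21 to 0.73 in H3c13. With AATAAA after the stop codon the median was 0.35 over 9 members, and without it 0.62 over 31. Both sides held exceptions. H4c9, with a hairpin and no AATAAA, had a slope near 0. H2ac12 and H2ac14, also without AATAAA, had 0.12 ± 0.13 and -0.23 ± 0.15. With AATAAA, H4c14 had a slope of 0.76 ± 0.15, H2bc6 0.74 ± 0.14 and H4c1 0.66 ± 0.10. H4c1 was the 1 member with AATAAA that passed. Among the H4 genes, the 4 with the hairpin of H4c3 had a median slope of 0.87, the 2 with that of H4c2 0.48 and the 2 with that of H4c9 0.42. The last pair was H4c9 itself, at 0.09 ± 0.08, and H4c14, at 0.76 ± 0.15, so its median describes neither gene.

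The 26 genes that rose with Rn7sk included the 8 core histone genes, 3 linker histone genes (H1f4, H1f5 and H1f1) and 15 others. Among these were Rmrp, the small Cajal body RNA Scarna2, the small nucleolar RNA Snord15b, a gene annotated as rRNA and 8 annotated as miRNA genes. Of the protein-coding genes outside the histones, Lars2 was the one present. Rmrp and Scarna2 were the only ones to pass among 6 listed RNAs without poly-A tails tested in this fit.

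The fit on Rn7sk rested on a few libraries. No member passed without replicate 1 or without replicate 3 of 72 h in 1.5 mM gels, the libraries highest and lowest in Rn7sk, and 3 passed without replicate 2 of 96 h in those gels, while 5 to 7 passed without any other. The median slope stayed between 0.53 and 0.62 throughout. With Rmrp in place of Rn7sk 7 members passed, 5 of them among the 8 above.

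The linker histone H1 genes of the same cluster encode proteins that bind the DNA between nucleosomes. Of 6 listed, 5 were tested, and none was called in any comparison of groups. In 1.0 mM gels H1f5 was higher at 72 h by 1.44 ± 0.41 (adjusted p = 0.0516) and H1f1 by 1.67 ± 0.50 (adjusted p = 0.0609). H1f2 was unlike the others, with 152 to 269 counts, 0.05 ± 0.15 in that comparison and a slope on Rn7sk of 0.14 ± 0.05 (adjusted p = 0.406), against 0.83 ± 0.09 in H1f4.

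The 12 genes listed as replication-independent are mostly variants that replace core histones outside S phase. H4f16, an H4 gene among them, was higher at 72 h in 1.0 mM gels by 1.41 ± 0.40 (adjusted p = 0.0517 by edgeR). In 1.0 mM gels 0 of 12 passed for embedding time. Across both gels 7 of 12 were lower at 72 h (adjusted p below 0.05) and none higher, with a median of -0.16. Of all genes, 31.1% passed that adjusted p across both gels, in either direction. H2ax, which is phosphorylated at DNA breaks, gave -0.38 ± 0.07 (adjusted p = 0.000701) and H2az1 -0.29 ± 0.06 (adjusted p = 0.00295). None of the 12 passed for gel concentration or in the fit on Rn7sk.

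Of 18 genes for histone gene transcription and 3′ end processing, none passed the test with embedding time in 1.0 mM gels. None passed with gel concentration at either time. In 1.5 mM gels 2 were higher at 72 h and none lower, against 19.3% of all genes in either direction. These were Hinfp (0.29 ± 0.09, adjusted p = 0.0406 by edgeR) and Eri1 (0.27 ± 0.07, adjusted p = 0.0326). Across both gels 1 was higher at 72 h, against 31.1% of all genes in either direction. It was Eri1, the exonuclease that trims histone RNA ends (0.19 ± 0.05, adjusted p = 0.0156). Of 14 histone chaperones, Rbbp7 was higher at 72 h (0.45 ± 0.06 across both gels) and 5 were lower, against the same 31.1% of all genes. Among the 5 was Chaf1b, a subunit of the replication-coupled assembly factor (-0.24 ± 0.06, adjusted p = 0.00740 by edgeR).

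Of 24 genes of S phase, none passed for embedding time in 1.0 mM gels (median -0.10), where the 6 histone genes were called. In 1.5 mM gels 4 were lower at 72 h and none higher, against 19.3% of all genes in either direction. Among the 4 was Tk1, the thymidine kinase gene, at -0.49 ± 0.06 (adjusted p = 0.00269 by edgeR). No S phase, mitosis, processing or chaperone gene rose with Rn7sk, and their median slopes were 0.01, -0.00, -0.04 and -0.02.

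Reads cannot always be placed within this family. In GENCODE M21 a median of 53.9% of a member's 75-base stretches, the read length, occur in no other gene's transcript, 22 of 51 members are below 50%, and H2ac19 and H3c14 have none. Of the 6 genes called in 1.0 mM gels, the share is 96.3% for H4c4, 83.1% for H4c3 and 75.4% for H4c6. It is 58.0% for H3c7, 57.6% for H4c8 and 51.7% for H4c2. Of the other members that rose with Rn7sk, it is 64.5% for H4c1, 41.4% for H3c2, 40.6% for H3c6 and 31.9% for H4c12. The loci of 19 members overlap another gene in the deposited table. For the FPKM table the authors ran Cufflinks with a correction for reads with several matches and a first-strand library setting. How such reads were treated in the raw counts, and with which strand setting, is not given in the sources used here.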

How the data were processed

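The authors trimmed paired 75 bp reads of poly-A selected, stranded libraries with cutadapt 4.4 and aligned them to mm10 with STAR 2.7.10b, using a custom annotation from Ensembl. They deposited a table of raw counts per gene, on which the tests here were run, and a table of FPKM from Cufflinks 2.2.1.3, used for levels per length and as an alternative. The 51 core histone genes were picked by a rule on symbols that uses no measured value and found in both tables by Ensembl identifier. The choice to describe this set, its gene lists and the tests were made with earlier results of these data known.

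The 36 mitochondrial genes were left out. Counts were filtered with filterByExpr (minimum 10, total 15), scaled by TMM and tested over all genes with the quasi-likelihood test of edgeR 4.0.16 in R 4.3.3, with Benjamini-Hochberg adjustment. Pairwise comparisons used the 6 libraries of the 2 groups, and embedding time, gel concentration and their interaction all 12. Calls needed an adjusted p under 0.05 with a change of more than 1 on the log2 scale in either direction. SE was derived from the fold change and its F statistic. Fold changes are 72 h over 96 h and 1.5 mM over 1.0 mM. Depth was 23011791 to 27609422 counts per library, and all replicate pairs differed beyond counting noise. DESeq2 1.42.0, limma 3.58.1 (voom, and log2 FPKM with a pseudocount of 1 or 0.1), other filters, RLE scaling, a replicate block and leaving out each library were alternatives. The fits on Rn7sk were added after the data were seen. Scripts were tested on simulated data.

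Genes named are the members past an adjusted p of 0.05, the 3 most abundant per histone, those of at least 50 counts with the largest changes, Rn7sk, and list genes that passed or were most abundant. Others were named after their values were seen, among them H2ac12, H2bc13, H3c1, H3c2, H3c13, H4c12 and H4c14.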

Additional observations from a re-analysis of the deposited data

How the results depend on the processing

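In 1.0 mM gels the 6 members higher at 72 h became 11 without a filter on low counts, 2 with a minimum of 1 CPM in 3 libraries, 1 with log2(1 + FPKM) and 3 with log2(0.1 + FPKM), and 0 with all 12 libraries in the fit, with or without Rn7sk as a covariate. Leaving out 1 library gave 1 to 8. In 1.5 mM gels the count of 0 became 0 to 5 when 1 library was left out, and for gel concentration at 72 h it was 0 to 0. At 96 h the count of 0 became 1 by DESeq2, 10 without a filter, 6 with the replicate block, and 0 to 1 without single libraries. Across both gels it became 1 for embedding time by DESeq2, without a filter and without a fold threshold, and 0 to 3 without single libraries. For gel concentration across both times it became 1, and for the interaction 5, without a filter, and both were 0 to 0 without single libraries. The 8 members rising with Rn7sk became 24 without a filter and 5 with log2(1 + FPKM), and 0 to 7 without single libraries. The difference in Rn7sk itself between gels across both times was 0.40 and ran from -0.071 to 0.683 without single libraries, with the lowest (adjusted p = 0.972) without replicate 1 of 72 h in 1.5 mM gels. The causes were not tested. Same-numbered replicates correlated at 0.04 to 0.31 in 18 pairs, 13 of them above 0.1, against 26 of 36 unlike pairs below 0. Deviations from the mean of 3 replicates were correlated, so values below 0 in unlike pairs partly follow from those above 0. In 33 of 36 cases a library correlated best with its own number in another group, a hint from the data and not the design. Since not every pair was above 0.1, the numbers were not taken to pair the samples. With the replicate block the 1.0 mM count was 8 and that of members rising with Rn7sk 11. Members averaging under 50 counts, all but 4, limit what these libraries can resolve.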
